A study of Mus musculus with 12 samples.

Results

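Toll-like receptors and the proteins that hold, carry or signal for them were followed in B cells of the Peyer's patches (PP), the lymphoid follicles of the small intestine, after an experimental stroke. The genes were grouped by their role, with earlier results of these data known. They are 10 of the 36175 genes of the table, namely the receptors Tlr1, Tlr2, Tlr4, Tlr6, Tlr7 and Tlr9, the receptor homologue Cd180 with its partner Ly86, the adaptor Myd88 and the chaperone Unc93b1. Of these, 9 reached a value of 1 or more in all 12 mice and entered the test across genes, and Tlr2 was described by its values alone.

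RNA was sequenced from PP B cells of 6 sham controls (treatment Sham) and 6 stroke mice (treatment Brain injury), with a separate library for each mouse. All 12 mice were male C57BL/6JHsd wild-type animals of 10 to 12 weeks, and the cells were purified 18 h after surgery, so that the comparison covers a single time point. Stroke was induced with a filament that blocked the middle cerebral artery for a limited time, whereas in sham surgery the filament was placed in the common carotid artery and withdrawn at once, and the mice received buprenorphine and carprofen. B cells were taken by magnetic depletion of other cells followed by CD45 beads, with a stated purity of at least 99%. After the first of these steps some epithelial and endothelial cells were still present. Epithelial transcripts were also found in the sequenced libraries, with marker sums of 8.68 to 1354 in sham controls and 10.998 to 674 in stroke mice.

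Toll-like receptors recognise conserved microbial molecules. TLR4 and the TLR2 heterodimers with TLR1 or TLR6 sit on the cell surface and bind bacterial lipopolysaccharide and lipopeptides, whereas TLR7 and TLR9 sense single-stranded RNA and unmethylated CpG DNA in endosomes, to which UNC93B1 brings them. All of these receptors signal through MyD88, and CD180, which lacks the signalling domain of the Toll-like receptors and is held on the B cell surface by the LY86 protein, modulates the response of B cells to lipopolysaccharide.

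Tlr1 and Tlr6 lie side by side on chromosome 5 and are near copies of each other over part of their coding sequence, which bears on how reads could be assigned to each of them. Of the 31-base words in the transcripts of Tlr1, 18.3% were also found in Tlr6, and 16.4% of those of Tlr6 in Tlr1, whereas none of the other members shared such a word. The longest run without a difference held 229 bases. It is shown here within 289 coding bases of a single exon of each gene, from the GENCODE M21 transcripts on GRCm38, at chr5:64925507-64925795 on the minus strand for Tlr1 and chr5:64953798-64954086 on the minus strand for Tlr6, with the 2 bases that differ in capitals.
Tlr1: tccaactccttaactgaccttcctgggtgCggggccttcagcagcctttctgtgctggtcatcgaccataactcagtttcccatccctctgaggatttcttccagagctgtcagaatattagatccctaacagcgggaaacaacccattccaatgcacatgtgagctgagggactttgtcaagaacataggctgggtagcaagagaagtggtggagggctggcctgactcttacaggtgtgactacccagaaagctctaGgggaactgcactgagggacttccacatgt
Tlr6: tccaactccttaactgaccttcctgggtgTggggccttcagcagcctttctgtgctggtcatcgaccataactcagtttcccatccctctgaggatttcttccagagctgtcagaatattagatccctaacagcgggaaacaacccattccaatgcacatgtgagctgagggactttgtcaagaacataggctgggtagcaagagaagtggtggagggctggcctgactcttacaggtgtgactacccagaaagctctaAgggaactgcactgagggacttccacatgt
A read that falls within such a run fits both genes, and its assignment rests on the estimate made by the quantifier. The values of Tlr1 and Tlr6 were therefore taken as uncertain where they depend on this split, which was not tested. Cd180 shares 182 of its 4509 exonic bases with Mast4 and Myd88 shares 290 of its 2576 with Acaa1a, in both cases on the opposite strand, and whether the libraries kept the strand is not given in the sources used here. Mast4 was at 53.2 ± 5.24 in sham controls and 45.3 ± 3.47 in stroke mice, a lower mean in stroke mice as for Cd180. Acaa1a was at 30.6 ± 6.17 and 28.1 ± 8.57 (SD, n = 6 each), above the level of Myd88. The part of these neighbours in the values of Cd180 and Myd88 was not tested.

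The sequences upstream of Cd180, Tlr1 and Tlr9 are shown because these members had the 3 largest differences between the groups. Each is the 250 bases before the RefSeq start on GRCm38.p6, at chr13:102693308-102693557 on the plus strand for Cd180, chr5:64933559-64933808 on the minus strand for Tlr1 and chr9:106222348-106222597 on the plus strand for Tlr9, with motif matches in capitals.
Cd180: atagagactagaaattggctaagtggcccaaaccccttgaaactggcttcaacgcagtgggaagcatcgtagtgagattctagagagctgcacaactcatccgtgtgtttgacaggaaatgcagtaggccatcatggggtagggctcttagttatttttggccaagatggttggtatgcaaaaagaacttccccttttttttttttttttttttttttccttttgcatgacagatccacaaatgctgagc
Tlr1: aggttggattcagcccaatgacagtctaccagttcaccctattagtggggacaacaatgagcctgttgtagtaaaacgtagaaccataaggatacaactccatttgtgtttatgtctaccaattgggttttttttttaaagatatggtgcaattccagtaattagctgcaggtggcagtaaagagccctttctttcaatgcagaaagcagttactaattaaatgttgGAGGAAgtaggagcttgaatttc
Tlr9: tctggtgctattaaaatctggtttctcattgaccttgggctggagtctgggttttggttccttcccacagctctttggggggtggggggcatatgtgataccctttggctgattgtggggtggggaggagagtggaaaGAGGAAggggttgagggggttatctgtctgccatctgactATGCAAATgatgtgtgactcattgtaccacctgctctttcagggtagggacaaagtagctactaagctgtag
The motifs searched on both strands were the PU.1 core GAGGAA, the octamer ATGCAAAT, the IRF core GAAANNGAA and the NF-kB consensus. The Tlr9 promoter held a PU.1 core at -112 to -107 and an octamer at -72 to -65, which did not overlap. That of Tlr1 held a PU.1 core at -23 to -18. None of these letters stood in the Cd180 window, which says nothing of the factors themselves. The windows of 7 members were read (Tlr1, Tlr2, Tlr6, Tlr9, Cd180, Ly86 and Myd88), and those of Tlr4, Tlr7 and Unc93b1 were not analysed here. Myd88 had an IRF core at -40 to -32 and Tlr2 overlapping NF-kB matches between -173 and -163, whereas Tlr6 and Ly86 had none. Positions count from the RefSeq start, which differs from the GENCODE gene start in some members. The whole 250 bases lay inside the GENCODE gene for Myd88, as did 159 of them for Tlr2, 137 for Ly86, 49 for Tlr6 and 5 for Tlr1. Across 32851 promoters of the same length, 23.3% held the PU.1 core, 7.13% the IRF core, 1.6% the octamer and 7.25% the NF-kB consensus. A match is a description of the sequence and not a measured site.

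The label of the deposited values is normalized TPM, a unit that is scaled by transcript length, so that genes can be compared with each other, but the values of a mouse do not add up to a common total. The totals ran from 559570 in sham control 6 to 1404340 in sham control 1 and from 804983 to 1020760 in stroke mice, and the number of reads behind each value is unknown. Some libraries stood apart. In sham control 6 the 10 highest genes took 14.7% of the total against 27.98% to 45.8% in the other sham controls, stroke mouse 6 had 30060 genes above 0 against 20633 to 23947 in the other stroke mice, and stroke mouse 5 had the lowest summed value of the B cell markers. The 6 B cell markers used here (Ms4a1, Cd79a, Cd79b, Pax5, Cd22 and Blnk) were present in every mouse, and their summed values were 1707 to 2434 in sham controls and 1385 to 2253 in stroke mice.

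The levels of the members spanned from 1.33 to 402 as sham means on the scale of normalized TPM. In sham controls Unc93b1 was highest with 402 ± 25.3 (mean ± SD, n = 6), followed by Ly86 with 123 ± 24.2, Cd180 with 122 ± 10.4, Tlr1 with 97.0 ± 30.98, Tlr9 with 35.2 ± 12.1, Tlr7 with 20.3 ± 2.96, Myd88 with 19.7 ± 5.98, Tlr6 with 6.36 ± 1.401, Tlr4 with 5.88 ± 1.80 and Tlr2 with 1.33 ± 0.453. The ranges over the 6 sham controls did not overlap between Unc93b1 and Ly86 (3.27-fold between the means), Tlr1 and Tlr9 (2.76-fold), Myd88 and Tlr6 (3.09-fold) or Tlr4 and Tlr2 (4.43-fold). The other neighbours in this order overlapped, so that the ranges did not rank Ly86, Cd180 and Tlr1, nor Tlr9, Tlr7 and Myd88, nor Tlr6 and Tlr4. Within a mouse, Tlr9 was above Myd88 in 6 of 6 sham controls and 5 of 6 stroke mice, whereas the other pairs within these sets stood in either order among the sham controls. In stroke mice Tlr1 came second with 137 ± 48.9, ahead of Ly86 with 110 ± 15.5 and Cd180 with 91.6 ± 19.2, and the ranges were separated at the same 4 places in the order. Among the B cell surface receptors the members for lipopeptide were thus unequal in level, with Tlr1 at 16.2 ± 6.82 times the value of Tlr6 within a sham control, and Tlr2, which pairs with either, below both.

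**Figure D1:**
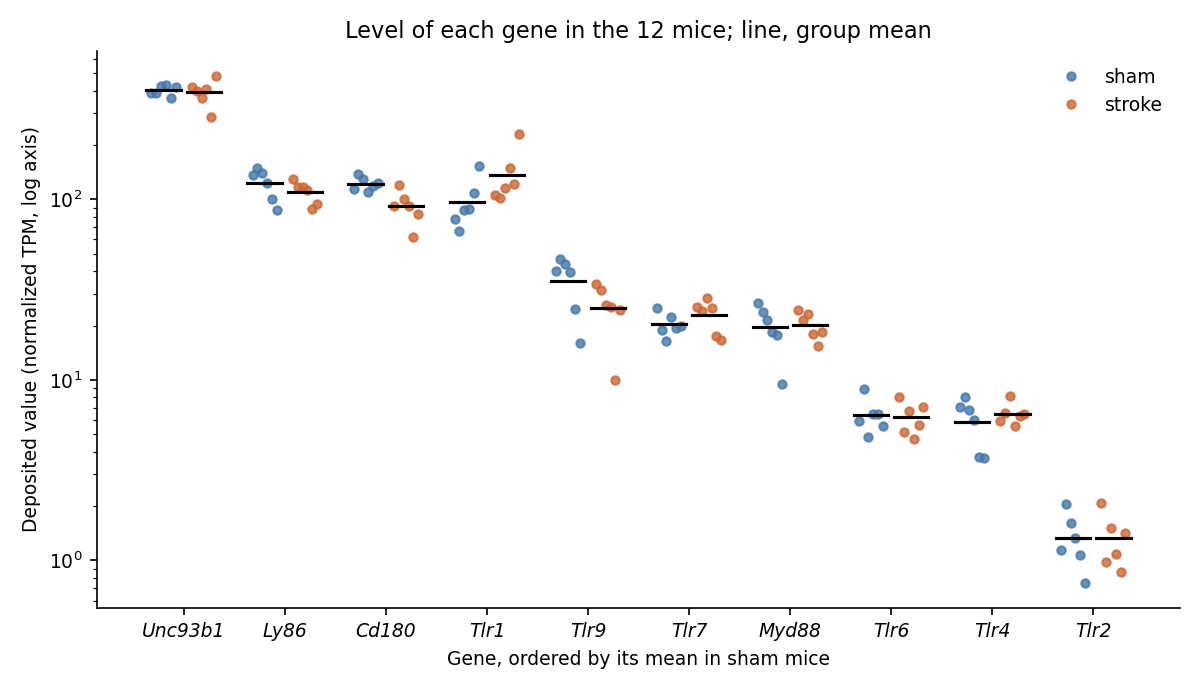
Level of each of the 10 genes in the 12 mice as deposited (normalized TPM, log axis), with 1 point per mouse and a line at the group mean (n = 6 sham, blue; n = 6 stroke, orange). Unc93b1 has means of 402 and 392 and Tlr2 of 1.33 and 1.32, and 5 of 6 stroke mice lie below all sham controls for Cd180.

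Whether stroke altered the expression of these genes was tested with limma on log2(value + 0.5) over 12590 genes. On this scale the change of genes with low values is understated. Across all genes, 557 (4.42%) were higher and 213 (1.69%) lower in stroke mice at an unadjusted p under 0.05, and 0 (0%) passed an adjusted p under 0.05 with the Benjamini-Hochberg method. The groups did not overlap for 55 genes (0.437%). Of the 9 members tested, 0 were higher and 1, Cd180, was lower at an unadjusted p under 0.05, 0 passed the adjusted threshold (limma, adjusted p from 0.744 to 0.974), and for 0 of them were the groups without overlap. With median-of-ratios scaling the split over all genes was 402 higher and 316 lower, with quantile normalization 378 and 327, and with each mouse rescaled to the same total 341 and 72. Without sham control 6 it was 936 and 1162. The median log2 difference of the members was -0.03, with 4 positive and 5 negative, beside 0.0069 over all genes. In bulk RNA, fewer cells of a type and less RNA per cell cannot be told apart.

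**Figure D2:**
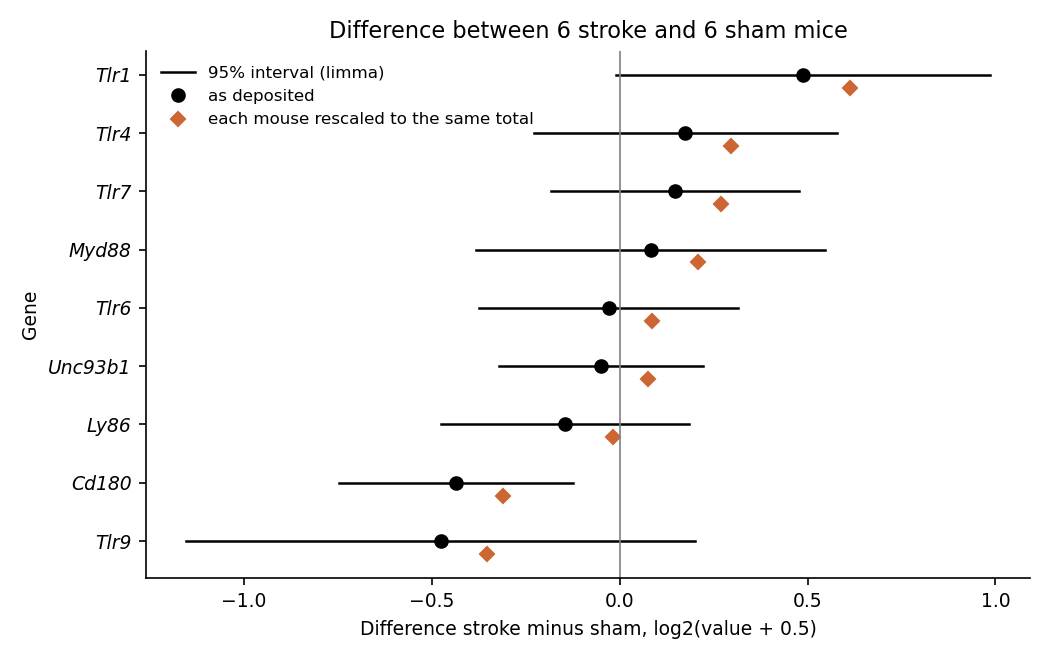
Difference between the 6 stroke mice and the 6 sham controls for the 9 members tested, on log2(value + 0.5), with the 95% interval from limma (black) and the estimate after each mouse was rescaled to the same total (orange diamonds). The interval lies wholly below 0 for Cd180 alone, from -0.75 to -0.12, and rescaling shifts every estimate upwards.

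Cd180 encodes the leucine-rich repeat receptor that lacks a signalling domain, and it was the member with the smallest p. Its value ran from 109.7 to 137.4 in sham controls (median 121.1) and from 62.1 to 120.3 in stroke mice (median 91.4). All 6 stroke mice lay below the sham median and 5 of 6 below the lowest sham control, whereas stroke mouse 2, at 120.3, lay within the sham range. The mean was 122 ± 10.4 in sham controls and 91.6 ± 19.2 in stroke mice (SD, n = 6 each), a ratio of 0.750. The log2 difference was -0.44 (SE 0.145, 95% interval -0.75 to -0.12, limma p = 0.0097, adjusted p = 0.744), with a two-sided exact permutation p of 0.0087. The smallest p that the 924 assignments of 12 mice allow is 0.0022. With any single mouse left out the difference ran from -0.52 to -0.33 and stayed at an unadjusted p under 0.05, and without both sham control 6 and stroke mouse 5 it was -0.33 (limma, adjusted p = 0.339). After each mouse was rescaled to the same total the difference was -0.31 and no longer passed the unadjusted threshold (limma, adjusted p = 0.949), and sham controls then ranged from 77.3 to 211.1 and stroke mice from 73.4 to 134.9, with sham control 6 highest. This rescaling moved the median log2 difference of all genes from 0.0069 to 0.12, and relative to that median Cd180 stood at -0.43, as compared to -0.44 on the deposited scale.

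Ly86, which encodes the secreted protein that binds CD180 and brings it to the cell surface, had values between 86.9 and 148.7 in sham controls (median 129.7) and between 88.5 and 129.2 in stroke mice (median 114.8). The groups overlapped over most of their range, although all 6 stroke mice lay below the sham median, and the lowest value of all was that of sham control 6. On the log2 scale Ly86 differed by -0.15 (SE 0.153, 95% interval -0.48 to 0.19, limma p = 0.360, adjusted p = 0.861, exact permutation p = 0.351). It was -0.019 after rescaling to the same total, -0.085 without sham control 2, -0.086 without stroke mouse 5 and -0.239 without sham control 6. To see whether the receptor and its partner varied in step, their ratio was taken within each mouse, which no scaling of a library can change. This ratio was chosen after the values were seen. Cd180 stood at 1.03 ± 0.225 times Ly86 in sham controls and 0.832 ± 0.121 in stroke mice, a log2 difference of -0.29 (exact permutation p = 0.0736). Of the 6 stroke mice 5 lay below the sham median of the ratio and 3 below the lowest sham control. With 1 mouse left out the difference ran from -0.19 without sham control 6 (exact permutation p = 0.143) to -0.36 without stroke mouse 2 (exact permutation p = 0.0303). It was -0.35 without sham control 1 (exact permutation p = 0.0476), and without each of the other mice the p stayed above 0.05.

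Tlr1, which forms the receptor for triacylated lipopeptides together with TLR2, showed the largest positive difference among the members. Its value ran from 66.5 to 153.8 in sham controls (median 87.9) and from 101.2 to 231.0 in stroke mice (median 118.5). All 6 stroke mice lay above the sham median, 4 of 6 sham controls lay below the lowest stroke mouse, and the highest sham control, number 6, lay above 5 of the stroke mice. The mean was 97.0 ± 30.98 in sham controls and 137 ± 48.9 in stroke mice, a ratio of 1.41. The log2 difference of 0.49 (SE 0.230, 95% interval -0.0084 to 0.98) did not pass the unadjusted threshold (limma p = 0.0535, adjusted p = 0.791, exact permutation p = 0.0779). It passed that threshold without sham control 6 (0.63), without stroke mouse 1 (0.55) and without stroke mouse 2 (0.56), with limma adjusted p values of 0.254, 0.663 and 0.745. Without stroke mouse 6, whose value was the highest, it was 0.33. The threshold was also passed with sample weights (0.57, limma adjusted p = 0.28) and with an intensity trend (0.49, limma adjusted p = 0.784). A block for the replicate number, whose meaning the labels do not give, also changed this call, as described below.

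The other surface receptors had low values. Tlr6, which pairs with TLR2 for diacylated lipopeptides, ran from 4.84 to 8.93 in sham controls (median 6.19) and from 4.70 to 8.03 in stroke mice (median 6.17), and the groups overlapped almost fully. Its log2 difference was -0.03 (SE 0.160, 95% interval -0.37 to 0.32, limma adjusted p = 0.974, exact permutation p = 0.861), and its sign turned with rescaling to the same total (0.086) and without sham control 2 (0.068), stroke mouse 2 (0.017) or stroke mouse 4 (0.041). The ratio of Tlr1 to Tlr6 within a mouse was 16.2 ± 6.82 in sham controls and 22.6 ± 7.89 in stroke mice, a log2 difference of 0.52 (exact permutation p = 0.141), with 5 of 6 stroke mice above the sham median. With 1 mouse left out it ran from 0.32 without sham control 2 (exact permutation p = 0.281) to 0.70 without sham control 6 (exact permutation p = 0.0519).

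Tlr4, the lipopolysaccharide receptor, ran from 3.68 to 8.005 in sham controls (median 6.39) and from 5.53 to 8.18 in stroke mice (median 6.37). The medians lay close together, and 2 sham controls, numbers 5 and 6, lay below all stroke mice. The difference on the log2 scale was 0.17 (SE 0.187, 95% interval -0.23 to 0.58, limma p = 0.367, adjusted p = 0.862, exact permutation p = 0.392). It was 0.067 without sham control 5, 0.064 without sham control 6, 0.11 without stroke mouse 3, 0.269 without sham control 2 and 0.295 after rescaling to the same total. Tlr2, the shared partner of the lipopeptide receptors, ran from 0.755 to 2.04 in sham controls (median 1.24) and from 0.868 to 2.08 in stroke mice (median 1.26), with 1 sham control and 2 stroke mice below 1. Its means of 1.33 ± 0.453 and 1.32 ± 0.445 did not differ beyond the spread between mice (log2 difference 0.0013, exact permutation p = 0.991).

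Of the endosomal receptors, Tlr9 had lower and Tlr7 higher means in stroke mice, neither beyond the spread between mice. Tlr9, the receptor for CpG DNA, ran from 15.9 to 46.8 in sham controls (median 39.8) and from 10.02 to 34.0 in stroke mice (median 25.6). All 6 stroke mice lay below the sham median and 4 sham controls above the highest stroke mouse, whereas sham controls 5 and 6 lay within the stroke range and stroke mouse 5 was lowest of all. The mean was 35.2 ± 12.1 in sham controls and 25.1 ± 8.33 in stroke mice, a ratio of 0.715. The log2 difference was -0.48 (SE 0.314, 95% interval -1.15 to 0.20, limma p = 0.152, adjusted p = 0.798, exact permutation p = 0.210). It was -0.68 and passed the unadjusted threshold without sham control 6 (limma, adjusted p = 0.279), was -0.24 without stroke mouse 5 (adjusted p = 0.999), and was -0.44 and passed the unadjusted threshold without both (adjusted p = 0.364).

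Tlr7, the receptor for single-stranded RNA, ran from 16.5 to 24.96 in sham controls (median 19.6) and from 16.6 to 28.4 in stroke mice (median 24.5). The groups overlapped, with 4 of 6 stroke mice above the sham median and stroke mice 5 and 6 at the lower end. Tlr7 differed by 0.15 on the log2 scale (SE 0.153, 95% interval -0.18 to 0.48, limma p = 0.353, adjusted p = 0.859, exact permutation p = 0.346). It was 0.08 without stroke mouse 3, 0.09 without sham control 3, 0.231 without stroke mouse 6 and 0.27 after rescaling to the same total. As Tlr7 and Tlr9 depend on the same chaperone, their ratio within a mouse was also compared, again chosen after the values were seen. Tlr7 stood at 0.668 ± 0.324 times Tlr9 in sham controls and 1.01 ± 0.399 in stroke mice, a log2 difference of 0.64 (exact permutation p = 0.0866), and all 6 stroke mice lay above the sham median. Without sham control 6, which had the highest ratio of the sham controls at 1.25, the difference was 0.84 (exact permutation p = 0.0173), and with each of the other mice left out the p stayed above 0.05, with the lowest difference, 0.46, without stroke mouse 5 (exact permutation p = 0.175).

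**Figure D3:**
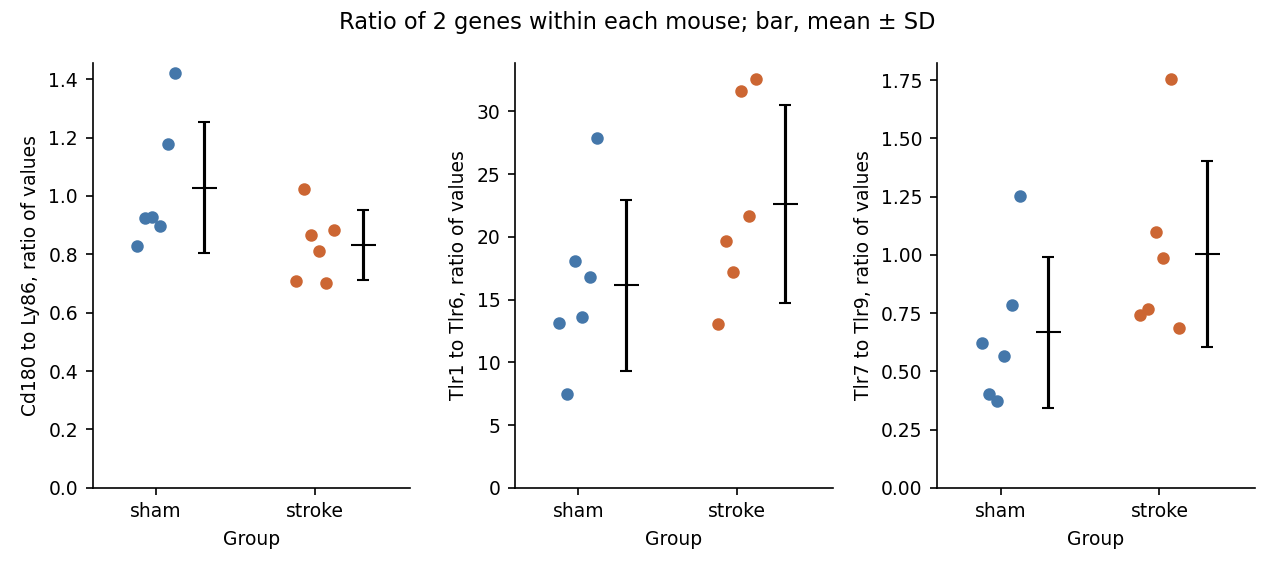
Ratio of Cd180 to Ly86, of Tlr1 to Tlr6 and of Tlr7 to Tlr9 within each mouse, with 1 point per mouse and the mean ± SD beside each group (n = 6 sham, blue; n = 6 stroke, orange). The groups overlap in each panel, and the mean ratio moves from 1.03 to 0.832, from 16.2 to 22.6 and from 0.668 to 1.01.

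Myd88, the adaptor that links all of these receptors to the IRAK kinases, ran from 9.54 to 26.7 in sham controls (median 20.0) and from 15.5 to 24.4 in stroke mice (median 19.9). The stroke mice lay wholly inside the sham range, and sham control 6 was lowest of all mice. Myd88 differed by 0.08 on the log2 scale (SE 0.216, 95% interval -0.38 to 0.55, limma p = 0.708, adjusted p = 0.944, exact permutation p = 0.779), and it was -0.11 without sham control 6, 0.182 without sham control 1, 0.025 without stroke mouse 1 and 0.208 after rescaling to the same total. Unc93b1, the chaperone of the endosomal receptors, ran from 365.7 to 429.4 in sham controls (median 403.5) and from 284.7 to 481.6 in stroke mice (median 402.4). Both extremes were stroke mice, number 5 at the bottom and number 6 at the top, and the medians nearly coincided. The log2 difference was -0.05 (SE 0.126, 95% interval -0.32 to 0.22, limma p = 0.695, adjusted p = 0.940, exact permutation p = 0.690), and its sign turned with rescaling to the same total (0.076) and without stroke mouse 5 (0.038). The spread of Unc93b1, as the SD in percent of the mean, was 6.30% in sham controls and 16.7% in stroke mice.

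The members were also read mouse by mouse. Relative to the sham mean on the log2 scale, stroke mouse 5 stood at -1.67 for Tlr9, -0.96 for Cd180, -0.49 for Unc93b1 and -0.44 for Ly86, while its Tlr1 stood at 0.38. Sham control 6 had a like pattern for some members, with -1.03 for Tlr9, -0.94 for Myd88, -0.55 for Tlr4, -0.47 for Ly86 and 0.72 for Tlr1, but its Cd180 stood at 0.019. Sham control 2 stood at 0.52 for Tlr2, 0.50 for Tlr9, 0.48 for Tlr6, 0.47 for Tlr4 and -0.49 for Tlr1, the opposite side from sham control 6 for each of these genes. Stroke mouse 6 had the highest deviation of Tlr1, at 1.301, with -0.54 for Cd180. Sham control 6 thus lay on the side of the stroke mice for Tlr1 and Tlr9 but not for Cd180.

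**Figure D4:**
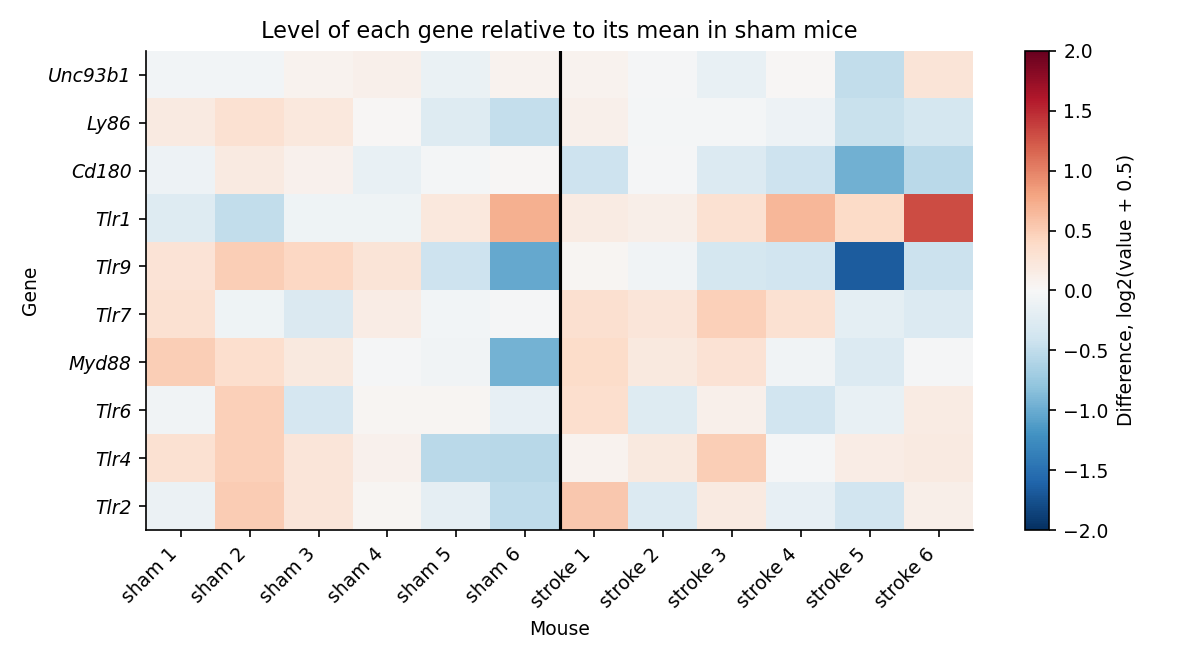
Level of each member in each mouse relative to its mean in sham controls (difference of log2(value + 0.5), colour scale from -2, blue, to 2, red), with members ordered by level and a line between the 6 sham and the 6 stroke mice. Tlr1 is above 0 and Cd180 below 0 in all 6 stroke mice, and the lowest cell is Tlr9 in stroke mouse 5 at -1.67.

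Members that act together were then compared over the 12 mice, for 5 pairs, on log2 values. Cd180 and Ly86 had a Pearson r of 0.536 (permutation p = 0.0693, adjusted p = 0.135) and a Spearman rho of 0.462 (permutation p = 0.132, adjusted p = 0.246), with r of 0.277 within sham controls, 0.763 within stroke mice and 0.126 without stroke mice 5 and 6, the values of Cd180 farthest from the median. Leaving out such mice also narrows the range of values, here and for the pairs that follow. Tlr9 and Unc93b1 had an r of 0.539 (permutation p = 0.0808, adjusted p = 0.135) and a rho of 0.196 (permutation p = 0.542, adjusted p = 0.542), with r of 0.0201 in sham controls, 0.779 in stroke mice and 0.0064 without stroke mouse 5 and sham control 6. Tlr7 and Unc93b1 had an r of -0.022 (permutation p = 0.950, adjusted p = 0.950) and a rho of -0.252 (permutation p = 0.430, adjusted p = 0.537), with r of -0.124 in sham controls, 0.0575 in stroke mice and 0.188 without stroke mouse 3 and sham control 3.

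Of the lipopeptide receptors, Tlr2 and Tlr6 had an r of 0.681 (permutation p = 0.0158, adjusted p = 0.0792) and a rho of 0.601 (permutation p = 0.0429, adjusted p = 0.214), with r of 0.510 in sham controls and 0.865 in stroke mice. It was 0.612 with median-of-ratios scaling (permutation p = 0.0341), and 0.284 without stroke mouse 1 and sham control 2 (permutation p = 0.417). These 2 mice had the values of Tlr2 farthest from the median. With a narrower range and 10 mice, the lower r cannot show whether the relation holds in the others. Values of Tlr2 were also low, with 1 sham control and 2 stroke mice below 1. Tlr1 and Tlr2 had an r of -0.367 (permutation p = 0.242, adjusted p = 0.303) and a rho of -0.448 (permutation p = 0.148, adjusted p = 0.246), with r of -0.869 in sham controls, -0.0017 in stroke mice and -0.452 without stroke mouse 6 and sham control 2. Correlations of this kind also carry the scaling of the libraries. After rescaling to the same total, Cd180 and Ly86 had an r of 0.777 (permutation p = 0.00233, adjusted p = 0.0116) and a rho of 0.755 (permutation p = 0.00626, adjusted p = 0.0313), with r of 0.849 in sham controls, 0.753 in stroke mice and 0.712 without sham control 6 and stroke mouse 5 (permutation p = 0.0238). With median-of-ratios scaling r was 0.562 for this pair (permutation p = 0.0559), so that the relation passed the threshold under 1 of the 3 scalings. Tlr7 and Unc93b1 had an r of 0.668 after rescaling (permutation p = 0.0175, adjusted p = 0.0437) and a rho of 0.545 (permutation p = 0.0695, adjusted p = 0.174), with 0.899 in sham controls, -0.085 in stroke mice and 0.269 without sham controls 2 and 6 (permutation p = 0.456). The r of the other pairs after rescaling was 0.212 for Tlr9 and Unc93b1 (permutation p = 0.50), 0.450 for Tlr2 and Tlr6 (permutation p = 0.139) and 0.176 for Tlr1 and Tlr2 (permutation p = 0.586).

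As a description of which transcripts varied most like each member, the gene with the highest Pearson r over the 12 mice was taken from all genes tested. Each r is thus the largest among 12590 genes, so that a high value can arise from this choice alone. No test was made, and a shared function cannot be read from these values. For Cd180 it was Ptprc, which encodes the leukocyte antigen CD45, with r of 0.937 on the deposited scale and 0.953 after rescaling. For Tlr1 it was Atp2b4, a plasma membrane calcium pump (0.953 and 0.967), for Tlr9 Slc35c1, a GDP-fucose transporter (0.993 and 0.902), for Unc93b1 Borcs8, a subunit of the BORC complex on lysosomes (0.942 and 0.962), and for Tlr7 Immt, a mitochondrial inner membrane protein (0.857 and 0.921). For Ly86 it was H2-Aa, an MHC class II chain (0.971), for Myd88 Rpl29, a ribosomal protein (0.979), and for Tlr4 Rprd2 (0.898), and in these r was lower after rescaling, at 0.497, 0.671 and 0.679. Tlr6 was nearest to Cldn34c1 (0.850 and 0.862). Among the members themselves the highest r on the deposited scale was that between Tlr9 and Ly86, at 0.909. This value also carries the scaling of the libraries, and r for this pair after rescaling was not computed.

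The wider pathway was described by 58 further genes, ordered by role, of which 50 were tested. At an unadjusted p under 0.05, 1 of the 50 was higher in stroke mice and 0 were lower, where 4.42% and 1.69% of all genes were, and 0 passed an adjusted p under 0.05 with limma. The median log2 difference was -0.03, with 24 positive and 26 negative. The gene past the unadjusted threshold was Ticam2, the adaptor that bridges TLR4 to TRIF, which ran from 3.66 to 6.65 in sham controls and from 5.57 to 7.94 in stroke mice. All 6 stroke mice lay above its sham median, 4 sham controls lay below the lowest stroke mouse, and the log2 difference was 0.37 (limma, adjusted p = 0.778). Ticam2 did not pass the unadjusted threshold without sham control 4 (0.30) or without stroke mouse 6 (0.32). Without sham control 6, 7 of the 50 pathway genes were below the sham level with an unadjusted p under 0.05, where 9.18% of all genes were (1162 of 12661).

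By role, the 7 transcription factors tested had a median log2 difference of -0.12 (1 positive, 6 negative), the 11 genes of chaperones, traffic and cleavage -0.18 (4 positive, 7 negative), the 19 adaptors and kinases 0.011 (10 positive, 9 negative), the 8 inhibitors 0.050 (6 positive, 2 negative) and the 4 co-receptors and accessory proteins 0.12 (3 positive, 1 negative), beside 0.0069 over all genes. Except for Ticam2, none of these genes passed the unadjusted threshold. Of the other receptors, Tlr3, which senses double-stranded RNA, was at 3.63 ± 3.53 in sham controls and 1.86 ± 0.764 in stroke mice, with a single sham control at 10.8. Its log2 difference of -0.58 had a limma p of 0.125. Tlr12 was at 1.47 ± 0.860 and 2.63 ± 1.11, and Tlr5, Tlr8, Tlr11 and Tlr13 stayed below 1 on average in both groups. Of the co-receptors and accessory proteins, Cd14 stood at 0.166 ± 0.135 in sham controls and 0.136 ± 0.121 in stroke mice, and Trem1 at 0.184 ± 0.0643 and 0.217 ± 0.115. Ly96, the lipopolysaccharide-binding partner of TLR4, was at 4.08 ± 1.65 and 4.42 ± 0.937, and Lbp at 2.48 ± 0.918 and 2.54 ± 0.370. Cd36 stood at 7.24 ± 3.81 and 5.49 ± 2.58, and Hmgb1 at 248 ± 48.8 and 283 ± 52.9.

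**Figure D5:**
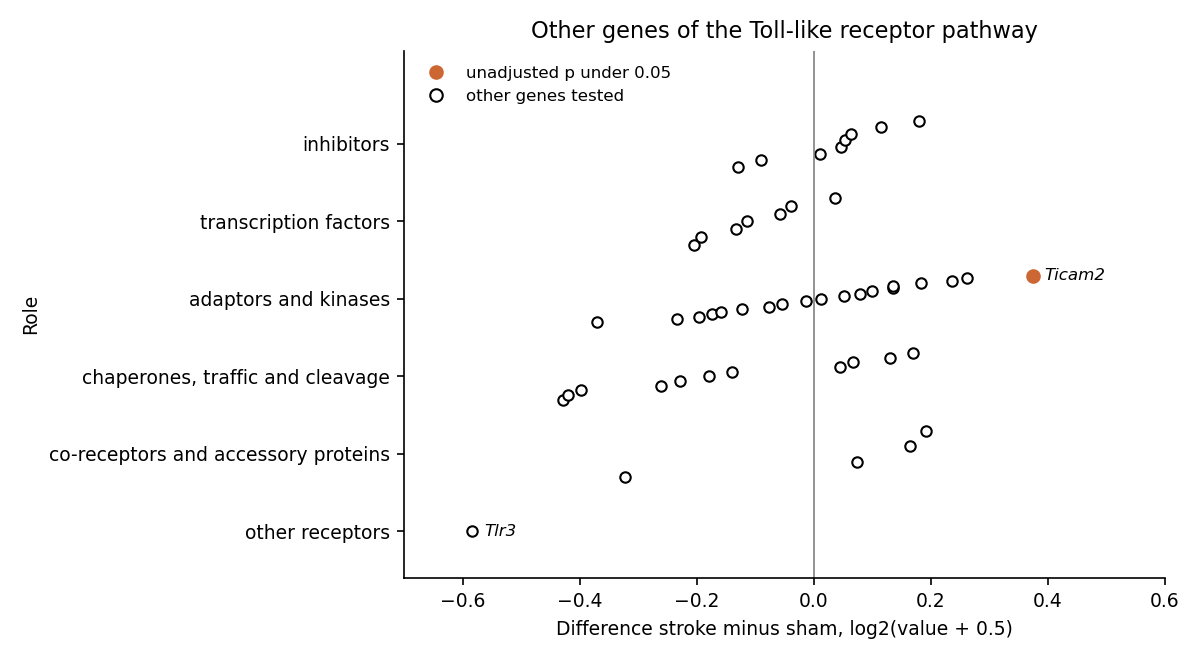
Difference between stroke mice and sham controls on log2(value + 0.5) for the 50 other pathway genes tested, by role, with 1 point per gene, spread vertically for legibility. Ticam2 (orange) is the single gene with an unadjusted p under 0.05, and the points of every role with more than 1 gene lie on both sides of 0.

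Markers of B cell stages are given beside Cd180 and Tlr9. The naive and follicular B cell markers (Ighd, Fcer2a, Cr2, Ccr7, Klf2 and S1pr1) had negative log2 differences in 6 of 6. Of these, 3 had an unadjusted p under 0.05 in limma, where 1.69% of all genes were lower at that threshold, and 0 passed the adjusted threshold. The 3 genes were Cr2 (-0.83, exact permutation p = 0.0043), S1pr1 (-0.71, exact permutation p = 0.0173) and Fcer2a (-0.72, exact permutation p = 0.0108). After rescaling to the same total neither Cr2 (-0.70) nor Fcer2a (-0.59) passed the unadjusted threshold (limma, adjusted p = 0.949 for both), whereas S1pr1 did (-0.58). Without stroke mouse 5 Cr2 was at -0.51 and Fcer2a at -0.36, and Fcer2a did not pass without sham control 2, 3, 4, 5 or 6 or without stroke mouse 3. The summed value of the list was 1029 to 1453 in sham controls and 397 to 1177 in stroke mice, so that the ranges overlapped, and its mean log2 value was 6.95 ± 0.283 in sham controls and 6.45 ± 0.469 in stroke mice (SD, n = 6 each). The difference was -0.50, and -0.32 without stroke mouse 5. No test is given for this list, because its content was reduced after values had been seen. The part of these markers in the values of Cd180 and Tlr9 was not tested.

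Markers of other cells that carry Toll-like receptors gave no difference of list means beyond the spread between mice. Monocyte and macrophage markers summed to 36.8 to 285 in sham controls and 45.5 to 157 in stroke mice (difference of mean log2 values -0.0059, exact permutation p = 0.987), and Fcgr1 was below 1 in every mouse. Neutrophil markers summed to 3.75 to 6.34 and 3.82 to 8.67 (0.22, p = 0.156 by exact permutation), with 5 of the 7, S100a8, S100a9, Ly6g, Retnlg and Mmp8, at 0 in some mice. Dendritic cell markers (Itgax, Flt3, Siglech, Zbtb46, Xcr1 and Clec9a) summed to 24.9 to 41.4 and 22.3 to 49.4 (0.26, exact permutation p = 0.186). Of the 4 tested, 2 were higher at an unadjusted p under 0.05 in limma, where 4.42% of all genes were. They were Flt3 (0.50, limma, adjusted p = 0.716) and Siglech (0.51, limma, adjusted p = 0.791). Siglech did not pass the unadjusted threshold in 8 of the 12 fits with a mouse left out. The other 2 tested, Itgax (-0.28) and Zbtb46 (0.062), did not pass that threshold. The epithelial markers summed to 8.68 to 1354 in sham controls and 10.998 to 674 in stroke mice (-1.52, exact permutation p = 0.279). Their part in the members' values was not tested.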

How the data were processed

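The authors sequenced RNA of PP B cells from 6 sham and 6 stroke mice. Reads were checked with FastQC 0.11.9, trimmed with Trimmomatic 0.39, quantified with kallisto 0.48.0 on GRCm38 with Ensembl release 102 and summarised with sleuth 0.30.0 in R 4.1.2. The deposited values, labelled as normalized TPM, do not share a total and were treated as a signal per gene. No counts were used here, so the sleuth Wald test of the authors was not repeated and the depth per mouse is unknown. With that test the paper reported genes both higher and lower in stroke mice. The count of 0 genes past the adjusted threshold given here belongs to limma on the deposited values alone.

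The 12590 genes that reached 1 in all 12 mice entered a limma fit (version 3.58.1, R 4.3.3) on log2(value + 0.5), without a block, with Benjamini-Hochberg adjustment over all of them. Exact two-sided permutation tests, ratios and correlations (100000 permutations over mice) were computed in Python 3.11.15 with scipy 1.17.1. The smallest exact p is that of 924 assignments. Each library is a separate mouse, so p-values measure the spread between mice.

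Named were all 10 members, every pathway gene with an unadjusted p under 0.05, and for each member the gene with the highest Pearson r. The other receptors and the co-receptors and accessory proteins were named by value. Genes such as Cr2 and Flt3 were named after their values were seen. The members and lists (58 pathway genes, 58 markers of B cells, naive and follicular B cells, germinal centre B cells, plasma cells, T cells, monocytes and macrophages, neutrophils, dendritic cells, epithelial and endothelial cells) were chosen with earlier results of these data known. Some genes are not reported here and were taken out of the lists of B cells, naive and follicular B cells and germinal centre B cells after the data were seen, so those 3 lists are described without a test. Positions came from GENCODE M21 (35869 of 36175 identifiers found) and promoters from RefSeq on GRCm38.p6.

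Alternatives were the pseudocount (0.1 or 1), the filter, 4 scalings, sample weights, an intensity trend, the replicate number as a block and leaving out each mouse. Leaving out sham control 6 with stroke mouse 5, the ratios within a mouse, and the rescaled correlations within a group or without the 2 farthest mice, were added after the data were seen.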

Additional observations from a re-analysis of the deposited data

Results flagged for a closer look

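In 52 groups of 6 mice examined (members, named genes and marker lists in each group), 6 values lay far from the other 5 mice, with a gap to the nearest mouse above Dixon's critical value for the share of the whole range. For a single group such a gap arises by chance in about 1 in 20 cases. The groups here share mice and genes, so that the 6 values cannot be set against this share. The naive and follicular list, for example, holds both Fcer2a and Cr2. Tlr1 in stroke mouse 6 was 231.0, where the next stroke mouse had 148.4 (gap 0.636 of the range). Tlr4 in stroke mouse 3 was 8.18, where the next had 6.52 (gap 0.628). The other 4 values were all in stroke mouse 5. Fcer2a was 48.6 there against 176.8 in the next mouse, and Cr2 was 47.1 against 168.8. The mean log2 value of the B cell markers was 7.69 against 8.17, and that of the naive and follicular B cell markers 5.56 against 6.41. Stroke mouse 5 also had the lowest Cd180, Tlr9 and Unc93b1 of the stroke mice, at 62.1, 10.02 and 284.7. What set these mice apart was not tested.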

How the results depend on the processing

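At 6 mice a group and unknown depth, the interval of the difference spans 0 for 8 of the 9 members tested, Cd180 being the exception. No member passed an adjusted p under 0.05 under any alternative tried. Of the genes higher at an unadjusted p (557), there were 1418 without a filter, 341 after rescaling to the same total, 342 with immunoglobulin genes also left out and 866 with sample weights, and 395 to 936 with 1 mouse left out. Of those lower (213), there were 350, 72, 70 and 703 under the same alternatives, 327 with quantile normalization, 819 without sham control 6 and stroke mouse 5, and 146 to 1162 with 1 mouse left out. With a mean value of at least 1 as the filter 1 gene passed the adjusted threshold, and 0 to 1 with 1 mouse left out. The number of members higher (0) was 1, Tlr1, with sample weights, with an intensity trend and without both mice, and 0 to 1 with 1 mouse left out. The number lower (1) was 0 after either rescaling, 2 (Cd180 and Tlr9) with sample weights and without both mice, and 1 to 2 with 1 mouse left out. In the pathway list 0 to 1 genes were higher and 0 to 7 lower with 1 mouse left out.

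The labels do not say what a shared replicate number marks. The deviations of same-numbered mice correlated with r of 0.494, 0.212, 0.0761, 0.139, 0.0134 and 0.373, each above the mean r with the other numbers (-0.107 to 0.0028), but 2 of these were under 0.1 and only sham controls 1 and 4 matched best with their own number. The mice were therefore not treated as pairs. A fit with a block for these numbers gave 770 genes higher and 404 lower at an unadjusted p and 0 past the adjusted threshold, and 1 member, Tlr1, was higher (limma, adjusted p = 0.375).

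Tlr6 turned sign after rescaling (0.086, or 0.082 without immunoglobulin genes) and without sham control 2 (0.068), stroke mouse 2 (0.017) or stroke mouse 4 (0.041), in a range of -0.102 to 0.068 with 1 mouse left out. Myd88 did so without sham control 6 (-0.106) and without both mice (-0.036). Unc93b1 did so after rescaling (0.076 and 0.072), with quantile normalization (0.014), without stroke mouse 5 (0.038, in a range from -0.113) and without both mice (0.051). After rescaling, the monocyte and macrophage list was at 0.097 and the naive and follicular list at -0.371 (-0.497 as deposited and with the block). With 1 mouse left out, the T cell list ran from -0.130 to 0.182 (negative without sham control 5 or 6 or stroke mouse 1, 2 or 6, at -0.130, -0.025, -0.127, -0.080 and -0.075), and the monocyte and macrophage list from -0.127 to 0.142 (positive without sham control 1 or 2 or stroke mouse 2 or 5, at 0.142, 0.035, 0.038 and 0.093). The other lists ran from -0.231 to -0.053 for B cells, -0.586 to -0.317 for naive and follicular, -0.018 (without stroke mouse 3) to 0.260 for germinal centre, -0.446 to -0.070 for plasma, 0.138 to 0.304 for neutrophils, 0.163 to 0.367 for dendritic, -2.367 to -1.012 for epithelial and -0.193 to -0.025 for endothelial cells.

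The pair correlations moved with the scaling and the mice. For Cd180 and Ly86 r was 0.777 after rescaling (permutation p = 0.00233), and with it 0.849 within sham controls and 0.712 without the 2 farthest mice. For Tlr7 and Unc93b1 it was 0.668 after rescaling (permutation p = 0.0175), with it 0.899 within sham controls and 0.269 without the 2 farthest mice, 0.005 with median-of-ratios scaling, and as deposited 0.058 within stroke mice and 0.188 without the 2 farthest mice. For Tlr1 and Tlr2 it was 0.176 after rescaling, with it 0.207 within sham controls and 0.327 without the 2 farthest mice, and as deposited -0.869 within sham controls. For Tlr2 and Tlr6 it was 0.450 after rescaling, with it 0.361 within sham controls, 0.657 within stroke mice and -0.109 without the 2 farthest mice, and as deposited 0.510 within sham controls and 0.284 without the 2 farthest mice. The causes of these shifts were not tested.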

Other observations

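Of the B cell stages, the germinal centre list (Bcl6, Fas, S1pr2, Gcsam, Rgs13 and Mef2b) had 4 positive and 2 negative log2 differences, and its mean log2 value was 4.71 ± 0.469 in sham controls and 4.82 ± 0.382 in stroke mice (SD, n = 6 each), given without a test because the list was reduced after values had been seen. S1pr2, the sphingosine-1-phosphate receptor that keeps B cells in germinal centres, was at 14.2 ± 5.40 in sham controls and 18.2 ± 7.55 in stroke mice. The plasma cell list (Sdc1, Jchain, Xbp1, Prdm1 and Mzb1) had 1 positive and 4 negative differences and differed by -0.23 (exact permutation p = 0.448), with Jchain, which joins polymeric IgA and IgM, at 585 ± 309 and 426 ± 184. None of these genes passed an unadjusted p under 0.05 with limma.

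The B cell list, also reduced, differed by -0.15, the T cell list by 0.012 (p = 0.976 by exact permutation) and the endothelial list by -0.089 (exact permutation p = 0.524). Among the endothelial markers Pecam1, which leukocytes also express, stood at 93.9 ± 9.57 and 93.3 ± 7.46, whereas Kdr and Tek were below 1 in every mouse.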
